A study of Mus musculus with 8 samples.

Results

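The 100 genes described here had abundant RNA and few ribosome footprints in wildtype mouse neurons. They were chosen on the wildtype libraries themselves. Transcript counts were summed per gene and scaled to a common library total (CPM). Among the 10076 genes with a mean of at least 10 CPM in wildtype total RNA, of 18301 genes in all, the 100 with the lowest log2((footprint CPM + 0.1)/(RNA CPM + 0.1)) were taken. That log2 ratio is called the footprint ratio below, and its wildtype values are a description of the choice. The double-knockout libraries played no part in the choice.

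The neurons were differentiated from CGR8 mouse embryonic stem cells, labelled as cortical and glutamatergic, and taken at day 8 in vitro after 5 minutes of cycloheximide at 100 µg/ml. Wildtype (WT) neurons and neurons labelled as an Eif4g1/Eif4g3 double knockout (DKO) each gave 2 footprint and 2 total RNA libraries. By the culture codes in the labels these 8 libraries were taken as 4 cultures, 3 of them with a numbered code and WT replicate 2 with the code WT. For DKO replicate 2 the code differs between the assays, so its pairing is an assumption. Nothing in the labels says how far the cultures of a genotype are independent, so the p-values below reflect only how much these libraries vary.

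Footprints are the short mRNA pieces that a ribosome shields from nuclease, so they come mainly from coding sequence. Untranslated regions, retained introns and transcripts without a reading frame carry few ribosomes, and RNA that stays in the nucleus carries none. A gene-level sum of RNA holds reads from all of these, and a read that matches several transcripts is divided among them by the counting program.

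A footprint library held 10482482 to 19738313 counts and an RNA library 14742617 to 44718989. Eif4g1 footprints measured 270 and 251 CPM in WT, against 141 and 265 CPM in the libraries labelled DKO. Its RNA measured 306 and 304 CPM in WT, against 137 and 329 CPM in DKO. Only DKO replicate 1 was low, in both assays. Eif4g3 lay between 112 and 159 CPM in all 8 libraries, and neither gene differed by genotype (edgeR's quasi-likelihood test, adjusted p 0.943 to 0.994). The labels do not say which part of either gene was removed, so these sums do not check the labels. Of the markers of the labelled cell type, Slc17a6 was present at 131 CPM in WT RNA. Slc17a7 and Tbr1 were at 0.0678 and 0.741 CPM, and the GABAergic marker Gad1 was at 115 CPM.

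Runs of 1 base and sequences of small RNAs recurred in the annotated transcripts of the 100 genes, and they are shown here for members with low ratios or much RNA. The search for them was made after the values were seen. The sequences come from the GENCODE M21 transcripts (GRCm38), are written 5′ to 3′ in the sense of the gene, and stop at 30 bases. The first 6 hold an unbroken run of A or T, given in capitals, in the isoform that carried the most RNA. Cisd3-204 has no reading frame and holds its run within an exon, while the last base printed lies past a splice junction (chr11:97686034-97686062 and chr11:97686183-97686183, + strand). Dmgdh-202 has no reading frame either and holds its run within an exon (chr13:93711690-93711719, + strand). The others lie in 3′ untranslated regions, namely Tmprss13-201 (chr9:45346777-45346806, + strand), Acnat1-201 (chr4:49447176-49447205, - strand), Dnase1l3-201 (chr14:7967718-7967747, - strand) and Fam177a-201 (chr12:55142075-55142104, + strand).
Cisd3: tAAAAAAAAAAAAAAAAAAAAAAAAAAAgc
Tmprss13: ggTTTTTTTTTTTTTTTTTTTTTTTTTTac
Acnat1: cTTTTTTTTTTTTTTTTTTTTTTTTTTTTc
Dnase1l3: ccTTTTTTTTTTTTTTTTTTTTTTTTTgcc
Dmgdh: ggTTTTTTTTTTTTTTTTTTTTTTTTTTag
Fam177a: atctatAAAAAAAAAAAAAAAAAAAAAAAA

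The next 4 transcripts hold the sequence of a small non-coding RNA, and the capitals mark 30 bases out of the longest stretch that both share. Lrrc17-201 (chr5:21575478-21575507, + strand, 3′ untranslated region) shares 82 bases with Bc1, the 168-base brain cytoplasmic RNA that RNA polymerase III makes in rodent neurons. Med23-210 (chr10:24894018-24894047, + strand, a retained-intron transcript) holds all 107 bases of Gm23410, an annotated small nuclear RNA gene. C5ar2-201 (chr7:16234787-16234816, - strand, 3′ untranslated region) holds all 127 bases of Gm26473, another of that class. Gm38393-204 (chr7:59980890-59980919, - strand, no reading frame) shares 57 of the 70 bases of the small nucleolar RNA Snord107.
Lrrc17: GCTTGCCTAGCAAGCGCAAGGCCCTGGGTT
Med23: ATACAGAGAAGATTAGCGTGGCCCCTGCGC
C5ar2: GAGGCCTTGGGCCTAACAACACACATACGG
Gm38393: TGAATATAATGATTTCAAAAATTGAGCTTA

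In WT the members' footprint ratios ran from -9.24 for Cisd3 to -3.12 for Zfp120, with a median of -4.52, where the 10076 genes had a median of -0.27. The last members inside the threshold were Pax3 at -3.13, Cpa6 at -3.13 and Zfp120 at -3.12. The first genes outside it were Gm14419 at -3.11, Arhgap6 at -3.10 and Wdr89 at -3.09, so the threshold cuts a continuous range. The members' RNA was not unusual in level. Their median was 61.1 CPM in WT, against 51.1 CPM over the 10076 genes, and 10 members were above 500 CPM. Their median in WT footprints was 1.51 CPM, and 35 members were under 1 CPM.

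**Figure D1:**
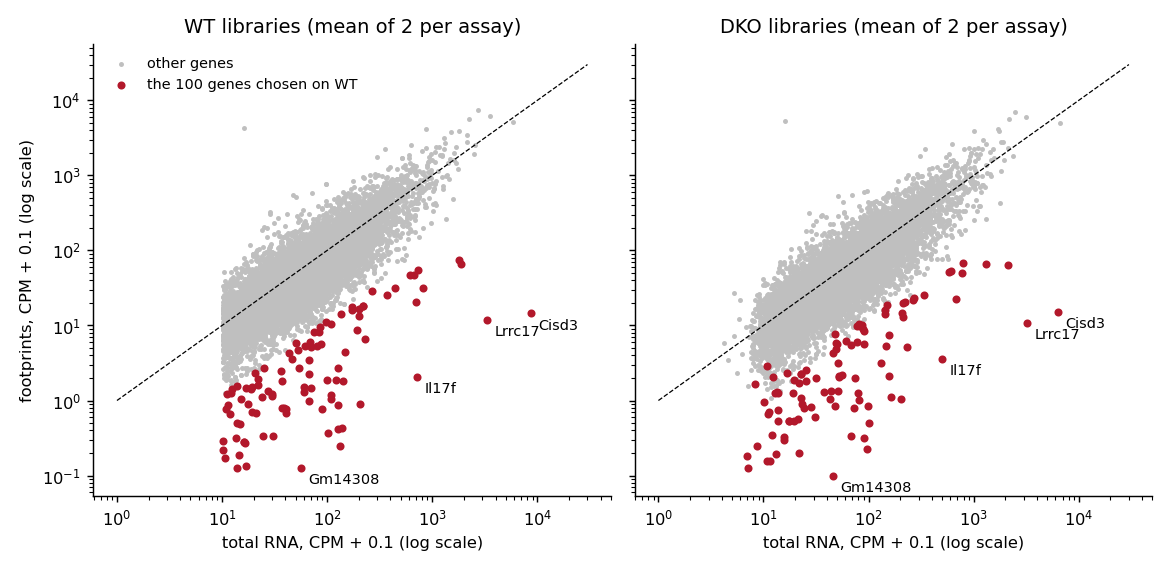
Mean footprint CPM (vertical) against mean total RNA CPM (horizontal), each plus 0.1 and on log axes, for the 10076 genes with at least 10 CPM in WT RNA, in the WT libraries (left) and the DKO libraries (right). Red points are the 100 genes chosen on WT, and the dashed line marks equal values; in DKO they stay at the lower edge of the cloud, with a median ratio of -4.33 against -0.28 for all plotted genes.

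The low footprint level was also found in the DKO libraries, which the choice did not use. All 100 members had fewer footprints than RNA there (edgeR's quasi-likelihood test over 14094 genes, Benjamini-Hochberg adjusted p up to 0.0339), where 33.4% of all genes tested and 35.7% of those with at least 10 CPM in WT RNA were called lower. For 99 members the fitted log2 ratio was -2 or lower, as for 6.24% of the genes tested. The exception was Pax3, a transcription factor of the neural crest, at -1.72 ± 0.35 (SE). The median fitted ratio was -4.19 for the members and -0.03 for all genes tested. Fitted ratios follow edgeR's TMM scaling of the libraries, so they differ from the footprint ratio. An SE given with an edgeR value was derived from the test. It is the absolute log2 value over the square root of the F statistic, and so is approximate. The members' median footprint ratio in DKO was -4.33. All 100 members passed the filter on low counts, 22 of them through their RNA alone. The 78 that passed in each assay separately were all called lower. The fit that called all 100 did not link the 2 assays of a culture. With the culture as a replicate block 97 members were called lower, and Pus7, Gm2026 and Gm3173 missed the threshold (edgeR adjusted p 0.064, 0.0677 and 0.059).

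Ranking the genes in the DKO libraries by the same rule found 89 of the 100 members again. The list from WT culture 1 alone held 92 and that from WT culture 2 alone 94, as parts of the choice, while DKO cultures 1 and 2 gave 80 and 84. Of the 11 members outside the DKO list, 4 were under 10 CPM in DKO RNA. In 98 members the ratio was -2 or lower in each of the 4 cultures. In 71 members the DKO ratio was higher than the WT ratio, a direction that choosing the lowest WT values favours. Counting limits the lowest members, since 15 of them had 10 or fewer counts over both DKO footprint libraries.

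**Figure D2:**
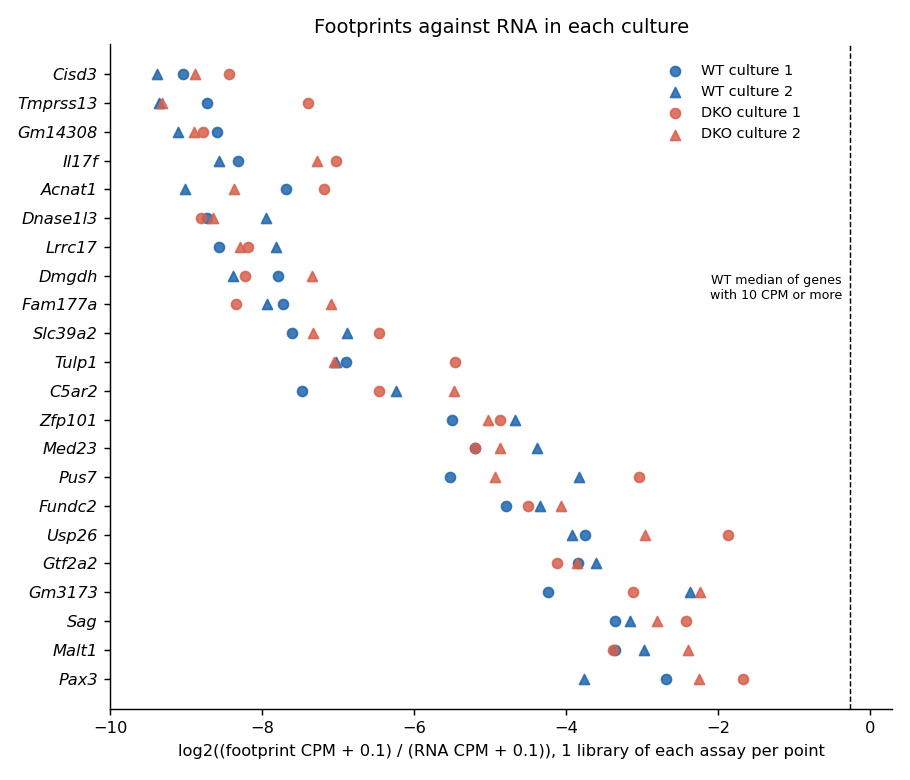
Footprint ratio in each of the 4 cultures, from 1 footprint and 1 RNA library per point, for the 12 members with the lowest WT ratio, the 8 with the most WT RNA and the 5 with the highest DKO ratio (22 genes in all, ordered by WT ratio). The dashed line is the WT median of the 10076 genes, -0.27; Pax3 and Usp26 come nearest to it in DKO culture 1.

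Cisd3, which encodes an iron-sulfur protein of mitochondria, had the lowest ratio and the most RNA of the 100 (ENSMUSG00000078695.8, chromosome 11, 97685826 to 97688621, + strand, GRCm38). Its RNA measured 7149 and 10382 CPM in WT, against 4683 and 8041 CPM in DKO. Its footprints measured 13.5 and 15.4 CPM in WT, against 13.5 and 16.9 CPM in DKO, so the RNA was uneven between libraries while the footprints were not. In DKO the fitted ratio was -8.41 ± 0.37 (SE, adjusted p = 1.6e-07).

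The isoforms of Cisd3 divided these counts completely. Cisd3-204, a 119-base processed transcript, took 7139 and 10373 CPM of the WT RNA and 4672 and 8031 CPM of the DKO RNA, and no footprint in any library. The 3 protein-coding isoforms held all 940 footprint counts. Their RNA was 9.50 and 9.18 CPM in WT and 10.4 and 10.1 CPM in DKO, even across the libraries. On the protein-coding isoforms alone the fitted DKO ratio of Cisd3 was 0.88 ± 0.16 (SE, edgeR adjusted p = 0.000916).

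Il17f, a cytokine gene of T helper cells (ENSMUSG00000041872.9, chromosome 1, 20777146 to 20790617, - strand), also had its RNA on a processed transcript. Il17f-203 (604 bases) carried 693 and 751 CPM in WT RNA and 535 and 472 CPM in DKO RNA. Its footprints, all on the same isoform, were 2.08 and 1.87 CPM in WT and 4.01 and 2.94 CPM in DKO. The protein-coding isoforms had no footprint, and their RNA was at 0 in 3 of the 4 libraries and 0.0224 CPM in the other. The counts listed for Il17f were thus assigned almost wholly to a transcript with no reading frame. In DKO its fitted ratio was -6.93 ± 0.17 (SE, edgeR adjusted p = 5.1e-10), and its footprint ratio was -7.14.

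In 28 of the 100 members, under 50% of the WT RNA was on isoforms annotated as protein-coding, against 6.75% of the 10076 genes. All other isoforms are called non-coding here, though targets of nonsense-mediated decay among them have an annotated reading frame. In 15 of the 28 the isoform with the most RNA was annotated as a retained intron, in 10 as a processed transcript and in 3 as a target of nonsense-mediated decay. Over these 28, that isoform held a median of 97.7% to 98.8% of the gene's RNA per library, and 54.0% to 73.6% of its footprints. Among all 100 members the leading isoform held a median of 100% of the WT RNA, against 89.5% over the 10076 genes.

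Med23, a subunit of the Mediator complex, stood at 2296 and 1426 CPM in WT RNA and at 2442 and 1796 CPM in DKO RNA. Its footprints were even, at 62.5, 68.1, 66.7 and 61.5 CPM in the same order. The retained-intron isoform Med23-210 took most of the RNA, and also 54.6% to 58.5% of the footprints per library. The protein-coding isoforms took 26.0 to 28.4 CPM of RNA and 25.7 to 28.05 CPM of footprints. On those isoforms the ranges of the assays overlapped.

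Gtf2a2, the small subunit of the general transcription factor TFIIA, stood at 839 and 617 CPM in WT RNA and at 739 and 824 CPM in DKO RNA. The retained-intron isoform Gtf2a2-209 (425 bases) took 545 to 770 CPM of it, and 2.96 to 4.96 CPM of the 42.4 to 58.3 CPM of footprints.

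Pus7, a pseudouridine synthase, stood at 1071 and 573 CPM in WT RNA and at 925 and 661 CPM in DKO RNA, mostly on the processed transcript Pus7-205. Its footprints were 23.1 and 40.0 CPM in WT and 113 and 21.5 CPM in DKO, with 92.2 CPM of the 113 on Pus7-205. The library of DKO replicate 1 thus stood apart. The fitted DKO ratio of -3.31 ± 0.93 (SE, edgeR adjusted p = 0.0339) passed the threshold narrowly. It missed it without either total RNA library of DKO (adjusted p 0.113 and 0.08), either one of WT (0.0616 and 0.0611), or either WT footprint library (0.0641 and 0.0646), and with the culture as a replicate block (0.064).

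Palld, an actin-binding protein, stood at 368 and 510 CPM in WT RNA and at 318 and 351 CPM in DKO RNA. The retained-intron isoform Palld-207 held nearly all of it but only 1.81 to 2.99 CPM of the 24.6 to 38.4 CPM of footprints. The protein-coding isoforms had 8.68 and 13.3 CPM of RNA in WT with 21.3 and 35.2 CPM of footprints. Brpf1, a reader of histone acetylation, had 279 and 404 CPM of WT RNA on the retained-intron isoform Brpf1-206. Its protein-coding isoforms had 27.8 and 29.1 CPM of RNA with 23.1 and 24.2 CPM of footprints.

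Counted on protein-coding isoforms alone, 86 members could be tested in DKO, of which 76 were called lower and 4 higher. Over all 13522 genes tested in that way, 32.8% were called lower and 30.1% higher. The 4 were Cisd3, Palld at 1.57 ± 0.24 (SE), Srd5a3 at 2.01 ± 0.21 and Med23 at 0.29 ± 0.11 (edgeR adjusted p from 2.5e-05 to 0.0396). These 4 are named here because they moved, and their values are fitted ratios. In plain CPM, Med23's coding isoforms had 27.1 and 25.7 CPM of footprints and 27.1 and 26.0 CPM of RNA in DKO. The call of Med23 as higher thus depends on the scaling used in the fit. Of the 80 members with at least 10 CPM of WT RNA on coding isoforms, 70 stayed at or below the highest ratio of the 100 members. Choosing 100 genes anew on coding isoforms found 25 of the members again. The other 75 genes had a median ratio of -0.75 over all isoforms, so that most of them had footprints, listed mainly on non-coding isoforms.

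**Figure D3:**
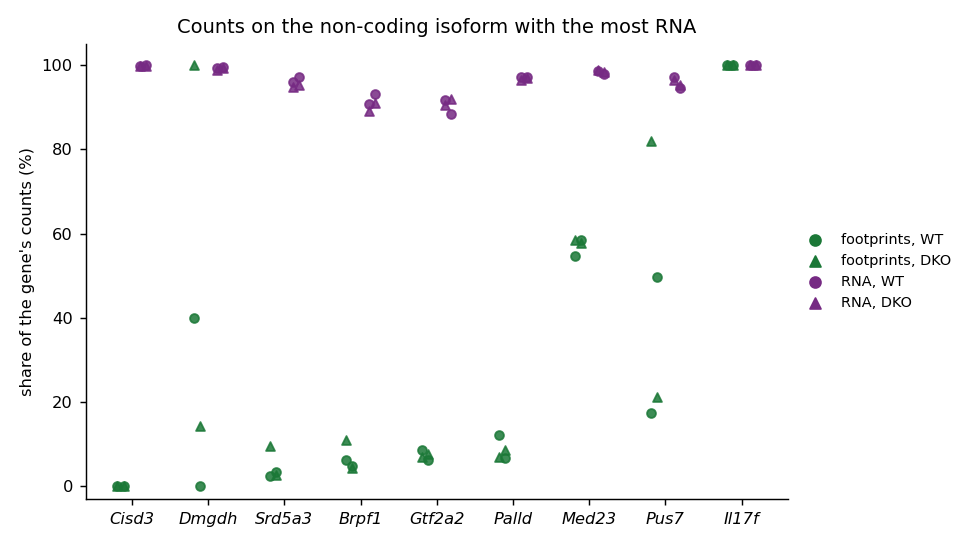
Share of a gene's counts (%) on its leading non-coding isoform, in each footprint library (green) and RNA library (purple), for 9 members, with circles for WT and triangles for DKO. RNA lies near the top in all 9, while footprints lie between 0 in Cisd3 and 100 in Il17f; Dmgdh has only 17 footprint counts over all 4 libraries and 1 library of Pus7 lies apart.

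A run of at least 20 A or T in the leading isoform was found in 38 members (38%), against 488 of the 10076 genes (4.84%). It was also found in 37 of the 100 genes that the rule takes in DKO, which share 89 genes with the members. The runs were of A in 19 members and of T in 19, and were 21 to 47 bases long. They lay in the 3′ untranslated region in 23 members, in the 5′ untranslated region in 3 and in a transcript with no reading frame in 12, and never in coding sequence. With a minimum of 25 bases the shares were 28% and 2.13%, and with 15 bases 44% and 12.1%. Of the 28 members with RNA mostly on non-coding isoforms, 13 also held such a run.

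Tmprss13, a serine protease of the cell surface, stood at 107 and 157 CPM in WT RNA and at 81.1 and 98.4 CPM in DKO RNA. It had 3 and 2 footprint counts in WT and 4 and 1 in DKO. Dnase1l3, a secreted DNase known from macrophages and dendritic cells, stood at 107 and 145 CPM in WT RNA and at 87.8 and 106 CPM in DKO RNA. It had 3 and 7 footprint counts in WT and 1 and 3 in DKO. Both genes were highest in the RNA of WT replicate 2, and their footprints were too few to compare.

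Acnat1, an enzyme that joins acyl groups to amino acids, stood at 114 and 160 CPM in WT RNA and at 97.6 and 106 CPM in DKO RNA, with 22 footprint counts over all 4 libraries. Dmgdh, the liver enzyme dimethylglycine dehydrogenase, stood at 78.5 and 126 CPM in WT RNA and at 58.3 and 78.4 CPM in DKO RNA. Slc39a2, a zinc transporter, stood at 108 and 143 CPM in WT RNA and at 92.6 and 104 CPM in DKO RNA, with 0.456 to 1.11 CPM of footprints. Tulp1, a photoreceptor protein, was lower, at 11.8 and 22.1 CPM in WT RNA and at 12.7 and 13.3 CPM in DKO RNA, with 3 footprint counts in all. In each of these 4 the RNA was highest in WT replicate 2.

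The RNA of run-bearing members was highest in 1 library. In 33 of the 38 the library of WT replicate 2 was the highest of the 4. That library was the highest in 31.4% of the other 9976 genes with at least 10 CPM. Since WT RNA is the denominator of the ratio that chose the members, the choice itself favours genes with high WT RNA. How much of the difference between these shares comes from the choice was not tested. Relative to a gene's mean over the 4 RNA libraries, the median of the 38 was 0.43 log2 units in WT replicate 2. It was -0.04 in WT replicate 1, -0.26 in DKO replicate 1 and -0.11 in DKO replicate 2. The other 62 members had medians of 0.05, -0.01, 0.03 and -0.08 in the same order. Of the 450 other genes with a run and at least 10 CPM, WT replicate 2 was the highest in 250 (55.6%). These genes also had to reach that minimum in WT RNA, so they are not free of a choice on WT. Summed markers of fibroblasts and mural cells were also highest in WT replicate 2, at 466 CPM against 84.1 to 227 CPM in the other 3, as were those of astrocytes (655 against 387 to 438 CPM). The sums for oligodendrocytes (463 against 263 to 392 CPM), proliferating cells (194 against 109 to 142 CPM) and pluripotent cells (12.4 against 5.74 to 6.51 CPM) were highest there as well. The glutamatergic sum, that of the labelled cell type and mostly Slc17a6, was lowest there, at 110 CPM against 198 to 270 CPM. The general neuronal sum was within the range of the others, at 3998 against 3888 to 4385 CPM. The GABAergic sum was the highest, at 288 against 233 to 284 CPM. The part of these cell types in the result was not tested. In bulk RNA more cells of a type and more RNA per cell cannot be told apart.

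**Figure D4:**
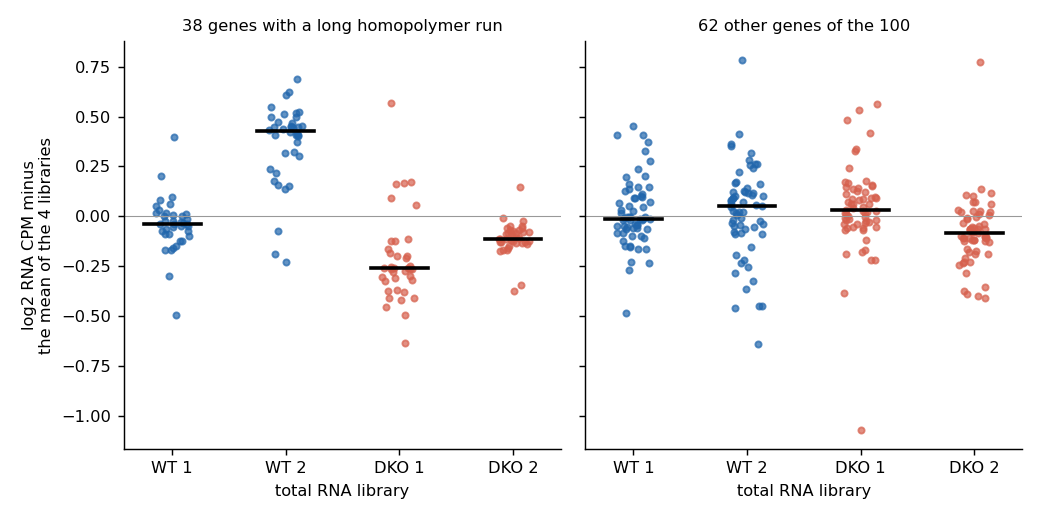
RNA of each member in the 4 total RNA libraries, as log2 CPM minus the gene's mean over those libraries, for the 38 members with a run of at least 20 bases (left) and the other 62 (right). Blue is WT, orange is DKO, and black bars are medians; on the left the median is 0.43 in WT replicate 2 and at or below 0 in the other 3 libraries.

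Small RNA sequence was found in the leading isoform of 12 members (12%), against 334 of the 10076 genes (3.31%), counted as at least 30 shared words of 21 bases. Lrrc17, a secreted leucine-rich repeat protein, was the member with the most RNA after Cisd3 (ENSMUSG00000039883.5, chromosome 5, 21543559 to 21575904, + strand). It stood at 3301 and 3380 CPM in WT RNA and at 3671 and 2779 CPM in DKO RNA. Its footprints were 8.56 and 14.8 CPM in WT and 12.5 and 8.77 CPM in DKO, so neither assay separated the genotypes. In DKO its fitted ratio was -7.99 ± 0.29 (SE, edgeR adjusted p = 2.7e-08). Bc1 itself was not analysed here, and how many of the reads counted for Lrrc17 match it was not tested. Of the 60444 transcripts used, 2 had a single exon, and 18287 of the 18301 genes were annotated as protein-coding.

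C5ar2, a receptor for the complement fragment C5a, stood at 108 and 70.2 CPM in WT RNA and at 92.8 and 65.0 CPM in DKO RNA, with 10 to 25 footprint counts per library. Its small nuclear RNA lies wholly inside an exon of the leading isoform, as does that of Med23. Ncbp3, a nuclear cap-binding subunit, stood at 776 and 556 CPM in WT RNA and at 618 and 550 CPM in DKO RNA, with 43.6 to 51.9 CPM of footprints. Its match was to Gm25072, annotated only as a miscellaneous RNA. Of 12 known host genes of small RNAs with at least 10 CPM, 0 were members. Since only 100 of the 10076 genes are members, 0 of 12 says little. Of the members, 6% carried any annotated small RNA within their span, against 9.04% of the 10076 genes.

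Near copies of other genes made up 23 members (23%), against 165 of the 10076 genes (1.64%), counted as at least 50% of the 21-base words of the leading isoform recurring in other genes of the table. With 25% the shares were 26% and 2.73%, and with 80% they were 15% and 0.883%. Chromosomes 2 and 14 held 7 each. For such genes the division of reads between copies is uncertain, so a single gene's value is uncertain too. Gm16434 and Gm6676 have identical leading isoforms of 2066 bases, and were listed with the same values in every library. They are named here because of that identity.

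Gm14308 (chromosome 2, 176613364 to 176636344, - strand), whose words all recur elsewhere, stood at 58.5 and 55.3 CPM in WT RNA and at 43.8 and 47.7 CPM in DKO RNA. It had 1 footprint count in WT and 0 in DKO, so its RNA was at least 440-fold higher than footprints in DKO, taking 3 counts over the group as the floor. Gm4631, also on chromosome 2, stood at 228 and 235 CPM in WT RNA and at 237 and 227 CPM in DKO RNA, with 5.06 to 7.62 CPM of footprints. Slc38a6, of the amino acid transporter family, stood at 571 and 651 CPM in WT RNA and at 608 and 614 CPM in DKO RNA, with 45.4 to 52.8 CPM of footprints. In RNA, Gm4631 and Slc38a6 were even between libraries, while both DKO values of Gm14308 lay below both WT values, with no call (-0.33 ± 0.12, SE, on the log2 scale).

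Fam177a stood at 214 and 194 CPM in WT RNA and at 218 and 193 CPM in DKO RNA, with 6 to 24 footprint counts per library. It is both a near copy, with 98.5% of its words elsewhere, and the bearer of a run of 24 A that ends the annotated transcript. On chromosome 14, 2610042L04Rik stood at 159 and 140 CPM in WT RNA and at 166 and 125 CPM in DKO RNA, with 3.46 to 5.44 CPM of footprints. Gm3558, near it, stood at 182 and 160 CPM in WT RNA and at 236 and 179 CPM in DKO RNA, with 14.4 to 16.4 CPM of footprints.

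None of these 4 features was found in 24 members, against 8589 of the 10076 genes. Their median ratio in DKO was -3.95, and that of the run-bearing members was -5.13. Fundc2, a protein of the outer mitochondrial membrane (ENSMUSG00000031198.4, chromosome X, 75382399 to 75396459, + strand), stood at 2014 and 1578 CPM in WT RNA and at 1468 and 1144 CPM in DKO RNA. Its footprints were 72.9 and 77.9 CPM in WT and 64.6 and 68.4 CPM in DKO. Fundc2-201, the protein-coding isoform with nearly all of the RNA, held 83.2% to 94.3% of the footprints per library. In each assay the DKO libraries lay below the WT libraries, by 0.48 ± 0.15 (SE) on the log2 scale in RNA and 0.17 in footprints, with no call. In DKO its fitted ratio was -4.01 ± 0.17 (SE, edgeR adjusted p = 2.5e-08).

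Zfp101, a zinc finger protein, stood at 835 and 576 CPM in WT RNA and at 733 and 633 CPM in DKO RNA, with 18.3 to 24.9 CPM of footprints. Its leading isoform is protein-coding, but only 195 of its 6095 bases (3.20%) code. Tmem72, a membrane protein, stood at 248 and 284 CPM in WT RNA and at 261 and 267 CPM in DKO RNA, with 20.96 to 35.0 CPM of footprints. It has 825 coding bases and a 3′ untranslated region of 15991 bases, the longest of the members'. Counts are not divided by length here.

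For 96 members and 9951 of the 10076 genes, the protein-coding isoform with the most WT RNA was described. In members with RNA mostly on non-coding isoforms, it held under 50% of that RNA, so these values do not describe their abundant RNA. Coding bases made up a median of 37.4% of this isoform, against 49.9% over those genes. Their median coding length was 1190 bases against 1371, and their median 3′ untranslated region was 1338 bases against 1141. The 5′ untranslated region was shorter, at 129 against 173 bases, and held an upstream ATG in 46.9% of members against 51.5%. A purine stood 3 bases before the start codon in 85.3% of 95 members against 86.6% of 9719 genes, and a G directly after it in 35.8% against 53.2%. Exons overlapped another gene on the opposite strand in 22% against 29.8%, and on the same strand in 15% against 7.5%. Whether counting used strand is not given in the labels, so reads of such pairs may be mixed. The mean number of upstream ATGs was 1.54 in members against 1.43, and 53.1% of the genes that the rule takes in DKO had at least 1. Dinucleotide repeats of at least 20 bases were found in 20% of members against 9.40%. These shares are descriptions with no test.

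**Figure D5:**
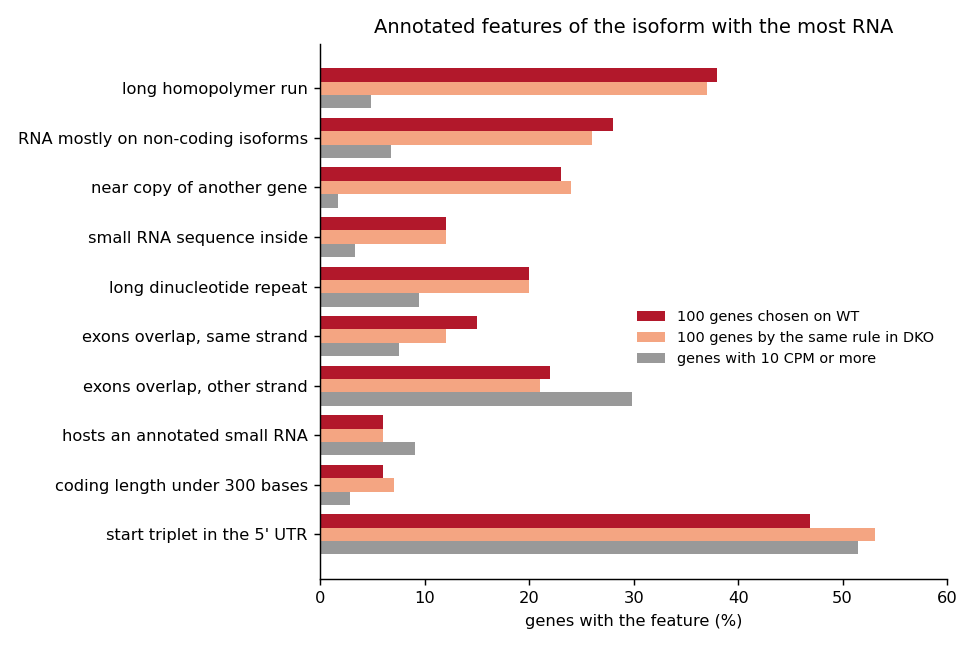
Percent of genes with each annotated feature among the 100 members (red), the 100 genes that the same rule takes in DKO (light red, 89 of them shared) and the 10076 genes with at least 10 CPM in WT RNA (grey). The first 4 features range from 38% against 4.84% for long runs to 12% against 3.31% for small RNA sequence. The last, an upstream start triplet, was scored in 96 members and 9821 genes. It is at 46.9% against 51.5%, and at 53.1% in the DKO list.

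The members with the highest ratios in DKO were Pax3, Usp26, Sag, Gm3173 and Malt1. Pax3 had 12.3 and 12.6 CPM of WT RNA, nearly all on the processed transcript Pax3-203. Its footprints were 1.82 and 0.831 CPM in WT and 3.72 and 1.91 CPM in DKO, nearly all on its other isoforms. Usp26, a deubiquitinase known from the testis, had 10.8 and 10.9 CPM in WT RNA and 7.89 and 8.33 CPM in DKO RNA. Its footprints were 0.709 and 0.623 CPM in WT and 2.10 and 0.980 CPM in DKO. Sag, the arrestin of photoreceptors, and Malt1, a signalling protease of lymphocytes, had 10.8 to 16.8 CPM of RNA and 0.963 to 2.99 CPM of footprints in all libraries. Gm3173, a near copy on chromosome 14, had 28.3 to 58.3 CPM of RNA and 2.99 to 9.96 CPM of footprints.

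No member was called between the genotypes by edgeR's quasi-likelihood test. In footprints 0 of 100 were called, with a smallest adjusted p of 0.821 (0.0071% of genes tested were called). In RNA 0 were called, with a smallest adjusted p of 0.593 (0.0142% of genes), and in footprints relative to RNA 0, with a smallest adjusted p of 1.0 (0% of genes). At an unadjusted p under 0.05 there were 11 members in footprints, 23 in RNA and 9 in the ratio, against 5.70%, 5.41% and 1.16% of the genes tested. DESeq2 called 1 member in RNA and 0 in the others, and limma-voom called 0 in all 3. The WT values chose the members, so differences from WT are descriptions here.

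In RNA the log2 fold change (DKO over WT) was negative in 74 members with a median of -0.15, where 50.4% of the genes tested were negative. In 39 members the DKO values lay below the WT values with no overlap, as for 16% of the genes tested. Of the 39, 26 bore a long run, the feature with the highest RNA in WT replicate 2. That is 26 of the 38 members with a run, where 27.8% of the 450 other genes with a run lay lower in the same way. Without both libraries of that culture, the median change of the 38 run-bearing members went from -0.40 to -0.18. Without both libraries of WT replicate 1 it was -0.60, and 21 members were called lower, 19 of them with a run. WT is then the library of replicate 2 alone, the one that stands apart, and is assumed to vary like the other groups. In that setting 2.44% of the genes tested were called lower, as were 205 of the 9976 other genes and 25 of the 450 other genes with a run. The 24 members with none of the 4 features had a median of -0.03.

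In footprints the members' median log2 fold change was 0.05, and in footprints relative to RNA it was 0.20. Il17f came nearest to a call in RNA, at -0.53 ± 0.12 (SE), and DESeq2 called it lower (-0.52, adjusted p = 0.00493). Its footprint change had the opposite sign, at 0.77 ± 0.23 with no call. Gm2026, a near copy on chromosome 2, had 1.67 and 1.04 CPM of footprints in WT and 10.6 and 1.63 CPM in DKO. Its footprints were called higher only when the library of DKO replicate 2 was left out (2.92 ± 0.26, SE, edgeR adjusted p = 0.0231), as were its footprints relative to RNA (3.15 ± 0.29, SE, adjusted p = 0.0315). Each call then rested on the library of DKO replicate 1, and each was the 1 call (0.00699%) among 14312 genes.

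Gene lists were compared by membership. Some stand for known reasons of low footprint levels, and others for families or functions, among them the families of Cisd3 and Il17f. Cisd3 was the only one of 3 CDGSH iron-sulfur genes among the members, and Il17f and Il17re were 2 of 3 genes of the IL-17 family with at least 10 CPM. Il17re, a receptor subunit of that family, stood at 25.6 and 35.0 CPM in WT RNA and at 20.4 and 22.5 CPM in DKO RNA, with 10 footprint counts in all, and bears a run of 23 A. No member came from the lists of replication-dependent histones, iron-responsive mRNAs, mRNAs controlled by upstream reading frames, polyamine genes, nuclear-retained mRNAs, selenoproteins, ribosomal proteins, oxidative phosphorylation, immediate early genes or Hox genes. These lists held 4 to 88 genes with at least 10 CPM. Since only 100 of the 10076 genes are members, finding none there says little. None of the stored germline mRNAs reached 10 CPM.

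Median DKO footprint ratios of those lists were far from the members' -4.33. The calls beside them come from the TMM-scaled fit. There 33.4% of the 14094 genes tested were called lower and 4409 genes were called higher. The medians were -0.73 for 26 nuclear-retained mRNAs (17 lower, 3 higher) and -0.70 for 17 mRNAs controlled by upstream reading frames (11 lower, 3 higher). They were -0.52 for 6 immediate early genes (3 lower, 1 higher), -0.47 for 12 polyamine genes (4 and 3), -0.30 for 10 iron-responsive mRNAs (5 and 4) and -0.23 for 12 small RNA hosts (2 and 4). The selenoproteins stood at -0.05 (4 lower and 7 higher of 16), the ribosomal proteins and elongation factors at -0.06 (9 and 35 of 88) and the Hox genes at -0.01 (6 and 10 of 17). Histones, at 0.58 (0 and 3 of 4), and oxidative phosphorylation subunits, at 0.78 (0 and 69 of 74), stood highest. They lay above the median of the 10076 genes, -0.28, as did the selenoproteins, ribosomal proteins, Hox genes and small RNA hosts. The IL-17 family stood at -6.74 (3 lower of 3) and the CDGSH genes at -0.48 (1 lower and 1 higher of 3). No list other than the IL-17 family, which holds 2 members, had a median within the members' range. The lists were drawn up with results of these data known.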

How the data were processed

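The authors deposited 1 table of estimated counts per Ensembl transcript for all 8 libraries; the submitters' processing notes name kallisto, Bowtie, Trimmomatic and FastQC. For versions, genome build and strand setting, nothing is given in the sources used here. Of 60528 transcripts, 60444 matched GENCODE M21 and were summed to 18301 genes; the others held at most 0.151% of a library. All values were whole numbers. kallisto divides reads among isoforms and similar genes, so isoform values of short footprints are estimates.

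The members and gene lists were chosen with earlier results of these data known. The sequence features were searched after the values were seen. All 8 libraries entered 1 quasi-likelihood fit (R 4.3.3, edgeR 4.0.16, DESeq2 1.42.0, limma 3.58.1) with 4 group means, TMM scaling, robust estimation and filterByExpr (minimum count 10), leaving 14094 genes and 4 residual degrees of freedom. A gene was called at a Benjamini-Hochberg adjusted p-value under 0.05. The procedure was tested on simulated data.

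Named genes are Cisd3 and Il17f, the 12 lowest WT ratios, the 8 highest WT RNA levels, the 5 highest DKO ratios, 3 genes on each side of the threshold and up to 3 of each list or feature by WT RNA. Alternatives were RLE or library-total scaling, other filters, DESeq2, limma-voom, only the groups compared, coding isoforms alone, replicate blocks, leaving out each library and, for the choice of members, other offsets and minimums. Leaving out both libraries of a culture and other limits of the sequence features were added after seeing the data.

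Culture codes pair the 2 assays, except that the code of DKO replicate 2 differs between its labels, so its pairing was assumed. Differences between replicates correlated across genes at 0.632 between assays in WT and at 0.189 in DKO.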

Additional observations from a re-analysis of the deposited data

How the results depend on the processing

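For footprints against RNA in DKO, the members called lower stayed between 76 (coding isoforms alone) and 100 in all alternatives, and between 98 and 99 when 1 library was left out (97 to 98 at -2 or less). With coding isoforms alone, 4 members were called higher; Cisd3 (0.88), Gtf2a2 (0.58), Med23 (0.29), Palld (1.57), Pax3 (0.89) and Srd5a3 (2.01) changed sign there. With the culture as a replicate block 97 members were called lower, Pus7, Gm2026 and Gm3173 not among them (adjusted p 0.064, 0.0677 and 0.059). Genes called lower numbered 4030 to 4956 without 1 library, 3136 without both libraries of DKO culture 1 and, with library totals alone, 6301 against 3035 higher (4713 against 4409 with TMM). That scaling moved the median of all genes from -0.03 to -0.32 and that of the members from -4.19 to -4.47, and kept all 100 members lower.

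Of the 100 members, 64 were retaken with a minimum of 5 CPM, which admits more genes, 25 with coding isoforms alone, and 92 to 94 without a replicate. For the DKO list the shared members were 22 with coding isoforms alone and 80 to 84 without a replicate, against 89.

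For genotype in footprints, genes called were 5 with DESeq2, 3 with no filter, 9 with the replicate block, 0 with coding isoforms alone, 0 without DKO culture 1 or 2, 2 without WT culture 2 and 498 without WT culture 1 (5 members), and 0 to 9 without 1 library (0 to 1 members). For genotype in RNA they were 14 with DESeq2 (1 member), 5 with limma-voom, 6 with no filter, 11 with the replicate block, 1 with library totals alone or only the groups compared, 0 without DKO culture 1, 476 without WT culture 1 (21 members) and 0 to 5 without 1 library (0 members). For footprints relative to RNA they were 2 with coding isoforms alone and 0 to 1 without 1 library (0 to 1 members); the replicate block gave 0. The cause was not tested. Low footprint counts limit the single values of the lowest members.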
